A study of Mus musculus with 30 samples.

Results

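The ends of protein-coding genes carried 25027 of the 255095 autosomal peaks of open chromatin measured in the mouse ventral hippocampus, or 9.81%. A peak was taken as a gene-end peak when it lay on chromosomes 1 to 19, was narrower than 10000 bp and overlapped the window that reaches 1000 bp to each side of either end of a protein-coding gene of RefSeq on the mouse genome build GRCm38. The table held 257149 peaks in all. A further 1164 gene-end peaks were 10000 bp wide or more and were set aside, and the other 228546 autosomal peaks under that width served for comparison. All 25027 gene-end peaks passed the filter on low counts.

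The question was whether mice used to daily restraint respond differently to a further restraint. Chromatin was assayed by ATAC-seq, which uses a transposase to cut and tag open DNA for sequencing, in nuclei of 1 ventral hippocampus per library from 30 mice of both sexes. The strain, age and genotype are not given in the sources used here. Chronically restrained mice were placed in a ventilated tube for 90 min a day over 10 days, and handled mice were lifted by the tail in place of restraint. All mice then spent 24 hours in single housing. Mice of the 0 min groups were taken from the home cage without a final restraint, and those of the 45 min groups were taken 45 min after a restraint of the same kind began. Among handled mice there were 8 at 0 min (4 females) and 7 at 45 min (3 females). Among chronically restrained mice there were 8 at 0 min (4 females) and 7 at 45 min (4 females). Each of the 4 batches named in the labels held all 4 groups. All libraries came from whole-tissue nuclei, so more nuclei of a type and wider opening per nucleus cannot be told apart.

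Gene starts hold promoters, the stretches where transcription factors and RNA polymerase assemble, and in most tissues they stay free of nucleosomes. Many mammalian promoters lie in CpG islands, regions rich in the dinucleotide CG that are usually unmethylated and open in all cell types, while promoters of tissue-specific genes are often poor in CpG. The far end of a gene, where transcripts are cleaved and polyadenylated, has no such fixed opening, but an enhancer or the promoter of a neighbouring gene may lie there. Acute stress raises corticosterone, which acts through the glucocorticoid receptor on target genes in the hippocampus, many of them by binding at open chromatin.

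Promoters of 6 genes under peaks that gained accessibility after acute restraint are shown to set CpG-rich beside CpG-poor starts. The bases are those of RefSeq on GRCm38.p6, read 5′ to 3′ along the gene from 250 bases before its start to the base before the start. Capitals mark matches, on either strand, to a CCAAT box or to a GC box, which has the letters GGGCGG. Also searched for were the TATA box (letters TATAAA), the cAMP response element (letters TGACGTCA) and the core of a glucocorticoid response element, in which GNACA is followed after any 3 bases by its reverse complement. None of these stretches held a TATA box, a cAMP response element or a receptor core. Phyhd1 (chr2:30265953-30266202, plus strand) had 1 CG pair in its 300 bases around the start, whereas Adamts14 (chr10:61273420-61273669, minus strand) had 44 and held 6 GC boxes.
Phyhd1: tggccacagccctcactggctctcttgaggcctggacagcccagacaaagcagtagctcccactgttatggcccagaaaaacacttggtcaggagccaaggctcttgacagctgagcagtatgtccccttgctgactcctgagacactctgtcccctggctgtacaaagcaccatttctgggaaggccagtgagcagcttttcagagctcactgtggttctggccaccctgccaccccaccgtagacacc
Adamts14: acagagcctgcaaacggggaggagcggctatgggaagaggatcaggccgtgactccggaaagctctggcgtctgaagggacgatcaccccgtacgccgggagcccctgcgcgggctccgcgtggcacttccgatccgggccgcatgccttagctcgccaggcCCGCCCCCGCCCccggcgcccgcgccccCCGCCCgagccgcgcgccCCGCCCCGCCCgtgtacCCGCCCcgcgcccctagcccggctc
The promoters of Nfkbia (chr12:55492648-55492897, minus strand), which encodes an inhibitor of NF-kappaB, and of Htra1 (chr7:130935953-130936202, plus strand), which encodes a secreted serine protease, each held a GC box, and that of Htra1 a CCAAT box as well.
Nfkbia: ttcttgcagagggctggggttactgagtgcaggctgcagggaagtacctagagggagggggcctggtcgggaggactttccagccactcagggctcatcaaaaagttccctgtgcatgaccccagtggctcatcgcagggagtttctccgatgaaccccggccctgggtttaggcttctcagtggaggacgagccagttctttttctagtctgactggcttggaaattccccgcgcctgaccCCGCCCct
Htra1: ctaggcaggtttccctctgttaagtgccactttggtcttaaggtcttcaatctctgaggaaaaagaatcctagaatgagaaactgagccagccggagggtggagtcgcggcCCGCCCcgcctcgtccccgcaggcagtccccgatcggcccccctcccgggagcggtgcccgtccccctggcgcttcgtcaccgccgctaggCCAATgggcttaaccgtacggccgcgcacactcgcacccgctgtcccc
Mt2 (chr8:94172368-94172617, plus strand) encodes a metallothionein and Hif3a (chr7:17062428-17062677, minus strand) a hypoxia-inducible transcription factor. The Hif3a stretch held 2 CCAAT boxes, and none of the motifs named above was found in that of Mt2.
Mt2: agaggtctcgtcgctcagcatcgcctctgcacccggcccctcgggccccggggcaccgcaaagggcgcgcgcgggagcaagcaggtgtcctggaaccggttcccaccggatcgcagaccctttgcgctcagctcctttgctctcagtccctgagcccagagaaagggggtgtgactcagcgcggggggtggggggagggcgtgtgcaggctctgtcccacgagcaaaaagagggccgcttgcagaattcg
Hif3a: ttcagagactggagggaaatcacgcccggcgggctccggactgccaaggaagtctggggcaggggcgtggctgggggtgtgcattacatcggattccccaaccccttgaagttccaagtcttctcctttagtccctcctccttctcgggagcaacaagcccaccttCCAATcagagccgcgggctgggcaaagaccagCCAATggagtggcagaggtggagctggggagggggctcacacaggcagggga

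Total counts in peaks ran from 26104576 to 55294838 per library, and the median gene-end peak had a mean of 176.5 counts per library, against 55.5 for the other peaks under 10000 bp. Animal 45, a female of the handled group at 0 min in batch 4, gave a library that stood apart in the share of counts at gene ends, and the results below that changed sign or call with it are given with and without it. As a check on the tissue, at least 1 gene-end peak was found for 11 of 15 markers of excitatory neurons, 13 of 15 of inhibitory neurons, 10 of 14 of astrocytes and 11 of 12 of oligodendrocytes, and 7 of 14 of endothelial and mural cells. Of genes not expected in brain, 4 of 14 from liver, 9 of 15 from skeletal and heart muscle and 7 of 14 from sperm and testis had one, so a gene-end peak alone does not mark the tissue. Of 8 markers of choroid plexus and ependyma 3 had one, as did 11 of 13 of microglia and 9 of 9 of oligodendrocyte precursors. Of 10 markers of neighbouring brain regions 7 had one, so these counts do not tell the brain region either.

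Gene-end peaks were found for most genes and gathered at the start rather than the far end. Of 20665 autosomal protein-coding genes 14050 (68.0%) had at least 1, and a further 1055 had only a peak of 10000 bp or more. The strand was known for 16457 genes, of which 62.2% had a gene-end peak at the start and 40.8% at the far end. Among the peaks, 10178 (40.7%) lay at a start alone, 8006 (32%) at a far end alone and 1361 (5.44%) at both, while for 5482 (21.9%) the strand of a gene was not known. Peaks at starts were wide, with a median of 1644 bp, and peaks at far ends narrow, with a median of 775 bp.

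Within the window, peaks at starts were placed on the start itself, and peaks at far ends were not. The centre of a start peak lay a median of 127 bp into the gene (quartiles −336 and 607 bp), and 72.5% of the 12858 pairs of a peak and a gene had the peak covering the start. At far ends the quartiles of the centre were −857 and 853 bp, and 25.6% of 10731 pairs had the peak covering the end itself. Within 1000 bp of the far end, the bin just before the end held the fewest pairs (143, or 1.33%), as the plot of positions shows.

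**Figure D1:**
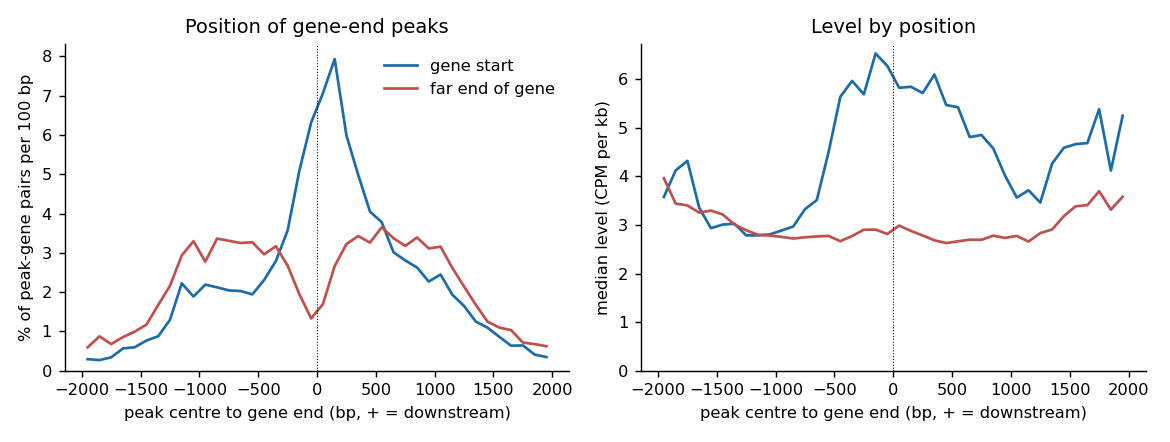
Position and level of gene-end peaks relative to the gene end they overlap. Left, percent of peak and gene pairs per 100 bp against the distance from the gene end to the peak centre in bp, with positive values downstream along the gene. Right, median level in CPM per kb in the same bins. Start peaks (blue) gather just inside the gene and have their highest median level, 6.53 CPM per kb, 150 bp before the start. Far-end peaks (red) dip to 1.33% in the bin at the end, are also sparse near the edges of the plot, and lie below the start peaks around the end.

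Whether a gene had such a peak varied widely between gene families. Of a chosen list of proteasome genes 30 of 31 (96.8%) had one. Of a chosen list of respiratory chain complex I genes 28 of 35 did, the other 7 having a wider peak only. Among all genes named Psm or Nduf it was 44 of 50 (88%) and 35 of 47 (74.5%). Zinc finger genes named Zfp, most of them transcription factors, followed with 327 of 391 (83.6%). Ribosomal protein genes had one in 67 of 95 cases, and 24 of the rest had a wider peak only. Odorant receptor genes, which are expressed in the nose, had one in 28 of 1104 cases (2.54%), vomeronasal receptor genes in 4 of 354 (1.13%) and keratin genes in 20 of 53 (37.7%). These housekeeping families stood above the share over all genes (68.0%), ribosomal protein genes only just (70.5%), and chemosensory receptors below it. Cell type markers lay on both sides, with 91.7% of oligodendrocyte, 86.7% of inhibitory neuron and 50% of endothelial and mural markers. These are counts of genes and were not tested.

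Genes with a gene-end peak over the start had promoters rich in G, C and CpG. Of 20085 promoter windows of 300 bases, 10686 were overlapped by a gene-end peak, 1656 by a wider one, 1584 by another peak and 6159 by none. The median GC content was 61.7% under gene-end peaks and 45.7% in windows with no peak. The ratio of observed to expected CpG had a median of 0.765 under gene-end peaks, where 71.8% of windows reached 0.6, and 0.183 in windows with no peak, where 6.33% did. Windows under wider peaks resembled those under gene-end peaks, with a ratio of 0.721.

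Levels were higher at starts with more CpG. Levels are given in CPM per kb, a peak's count scaled to library size and divided by its width. For windows with a CpG ratio below 0.3 the overlapping peak had a median of 3.34 CPM per kb (n = 1040), from 0.3 to below 0.6 it had 4.78 (n = 1969), from 0.6 to below 0.9 it had 6.53 (n = 4769) and from 0.9 upwards 7.17 (n = 2908). The median width increased in the same order, from 1575 to 2723 bp, so level and width moved together, and their separate part was not tested.

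Short motifs divided open from closed promoters in both directions. The GC box, bound by Sp family factors, was present in 64.9% of windows under gene-end peaks, 11.4% of windows with no peak and 47.0% of all windows. The TATA box showed the opposite order, with 6.53%, 26.8% and 12.7%. NRF1 sites (GCGC, any 2 bases and GCGC again), bound by a regulator of nuclear genes for mitochondria, were in 13.2%, 0.763% and 8.83%, and ETS sites (CCGGAAG) in 17.1%, 2.55% and 11.9%. The GC box, NRF1 and ETS motifs each hold the pair CG. The CCAAT box, which does not, was as common under gene-end peaks (37.4%) as in all windows (38.1%). The receptor core was rare everywhere, in 0.299% of windows under gene-end peaks and 0.458% of all. Both strands were searched. GC boxes and NRF1 sites can overlap CpG runs and each other.

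Against other peaks of similar width, gene-end peaks stood apart mainly among the widest. Width quartiles were taken over all autosomal peaks under 10000 bp. Gene-end peaks made up 4.53% of the quartile from 11 to 354 bp, 4.97% of that from 355 to 559 bp, 6.99% of that from 560 to 990 bp and 23% of that from 991 bp upwards. The median level was 2.81 CPM per kb for gene-end peaks and 2.80 for other peaks in the narrowest quartile, 2.55 and 2.53 in the next, 2.63 and 2.58 in the third, and 4.67 and 3.01 in the widest. Taken library by library, the ratio of these medians had a median of 1.51 in the widest quartile (range 1.45 to 1.89) and exceeded 1 in all 30 libraries. In the narrowest quartile it ran from 0.937 to 1.04, on both sides of 1, and in the third from 0.993 to 1.05. The highest ratio of the widest quartile, 1.89, belonged to animal 45. The mean of the quartile's library ratios was 1.54 with that library and 1.52 without it. By group, the ratio in the widest quartile had medians of 1.49 (0 min) and 1.53 (45 min) for handling and of 1.54 and 1.5 for chronic restraint, and the ranges of all 4 groups overlapped.

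The widest quartile spans a broad range, so it was divided further after the data had been seen. The excess held in each division: gene-end and other peaks had 3.17 and 2.79 CPM per kb from 991 to below 1500 bp, 4.80 and 3.07 from 1500 to below 2500 bp, 5.38 and 3.48 from 2500 to below 5000 bp, and 5.06 and 3.95 from 5000 to below 10000 bp. The excess was found at starts. Start peaks reached 6.45 CPM per kb from 1500 to below 2500 bp and 6.60 from 2500 to below 5000 bp, whereas far-end peaks had 3.02 and 3.37, close to the other peaks. In the narrowest quartile even start peaks had 2.84 CPM per kb, against 2.79 at far ends.

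Gene-end peaks also varied slightly less between animals than other peaks of their quartile. The biological coefficient of variation, the spread between animals beyond counting error, had medians of 0.152 for gene-end and 0.156 for other peaks in the narrowest quartile, 0.140 and 0.143 in the next, 0.124 and 0.126 in the third, and 0.0908 and 0.0995 in the widest. In the widest quartile the gene-end peaks also had more counts, with medians of 507 against 187 per library. Within divisions by width the order was mixed, at 0.104 against 0.108 from 991 to below 1500 bp but 0.0851 against 0.0827 from 2500 to below 5000 bp.

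**Figure D2:**
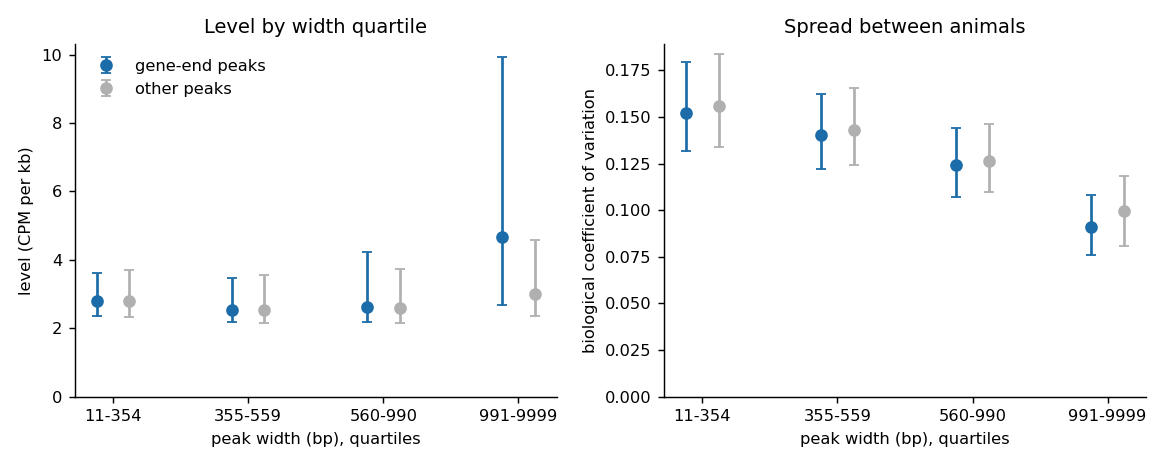
Level and spread of gene-end peaks (blue) and other autosomal peaks under 10000 bp (grey) by width quartile in bp. Left, CPM per kb, and right, biological coefficient of variation between animals, with points at the median over peaks and bars from the 10th to the 90th percentile. The pair of medians differs visibly in level only in the widest quartile, 4.67 against 3.01 CPM per kb.

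The highest levels were found at a few clustered peaks. These positions were not checked against lists of regions that gather excess reads, so whether such levels measure open chromatin was not tested. The highest was a peak of 364 bp at the far end of Wls, which encodes a carrier of Wnt proteins (chromosome 3, 159939360 to 159939723), with 347 CPM per kb. Its CPM ran from 71.2 through a median of 129 to 146 in handled mice at 0 min and from 114 through 121 to 146 at 45 min, and from 104 through 128 to 176 and 115 through 120 to 172 in chronically restrained mice, so all groups overlapped. Of the 10 highest, 7 lay between 47662689 and 47741220 on chromosome 6, at the predicted genes Gm40363, Gm40364, Gm36327, Gm40365 and Gm40367, with 40.3 to 138 CPM per kb. The others were at Gm32584 (58.7) and at the far end of Lars2, which encodes the mitochondrial leucyl-tRNA synthetase (47.6). None of the 10 had an adjusted p under 0.05 for acute restraint. The most variable gene-end peak, chosen after its values were seen, was a narrow one of 219 bp at the start of Zfp972, a zinc finger gene, with a coefficient of variation of 0.248 and 0.319 to 2.28 CPM among the handled mice at 0 min.

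The share of a library's counts in gene-end peaks overlapped between all groups. In handled mice at 0 min it ran from 25.9% through a median of 26.3% to 29.9%, and at 45 min from 26.3% through 26.7% to 27.9%. In chronically restrained mice it ran from 26.0% through 26.7% to 27.3% at 0 min and from 25.8% through 26.5% to 27.5% at 45 min. All 4 ranges overlapped, and the group means were 26.9% ± 1.33 (SD, n = 8), 26.9% ± 0.572 (n = 7), 26.7% ± 0.526 (n = 8) and 26.6% ± 0.507 (n = 7). The 29.9% was that of animal 45, and without it the first mean was 26.5% ± 0.574 (n = 7). That library had 17.1% of its counts in start peaks, above every other library (13.3% to 15.1%), and 3.44% in far-end peaks, below every other library (3.84% to 4.17%). Batch means ran from 26.4% in batch 3 to 27.3% in batch 4, which held that library, and the means of females and males were 26.9% ± 1.00 and 26.6% ± 0.498 (n = 15 each).

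**Figure D3:**
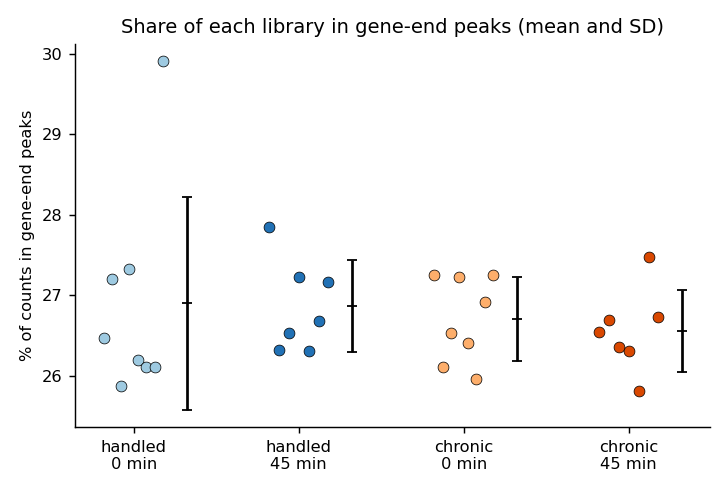
Percent of each library's counts in gene-end peaks by group. Each point is 1 mouse, and the bars beside the points give the mean and SD. Points of the 4 groups overlap between 25.8% and 27.9%, and the library of animal 45 is alone at 29.9%.

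Acute restraint raised accessibility at 26 gene-end peaks and lowered it at 2, averaged over both histories, where 0.116% of all tested peaks passed in either direction. The 28 log2 changes had a median size of 0.30. Those that rose were led by a peak beside Sgk1, which encodes a kinase induced by serum and glucocorticoids, a peak over the far end of Lrrc8a, a subunit of a volume-regulated anion channel, and the start of Phyhd1, a dioxygenase, and a peak over the start of Adamts14, a metalloprotease that processes procollagen. The peaks that fell lay near the start of Pdcd1, which encodes the immune checkpoint receptor PD-1, and over the far end of Inhbc, an inhibin subunit. The test was edgeR's quasi-likelihood F-test with sex and batch in the model, Benjamini-Hochberg adjustment ran over all 257143 tested peaks, and calls were made below an adjusted p of 0.05. The p-values set each change against the spread between animals, which was estimated over all 4 groups together.

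Those calls were 0.104% of gene-end peaks higher, where 0.0731% of all tested peaks were called higher, and 0.00799% lower, where 0.0432% of all were. Width bears on these shares. In the widest quartile 0.130% of gene-end and 0.187% of other peaks were higher, and 0.0137% and 0.0615% lower. In the third quartile the shares higher were 0.0905% and 0.0646%, in the second 0.0634% (2 peaks) and 0.0298% (18), and in the narrowest 0.0347% (1 peak) and 0.0148% (9). The shares were not tested against each other. All 28 calls kept their sign within every batch (4 of 4), though the same libraries selected them.

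The calls depended on single batches and on how libraries were adjusted. Without animal 45 the count was 52 (49 higher, 3 lower), which held all 28. The share higher was then 0.196% of gene-end peaks and 0.189% of all tested peaks. It was 4 without batch 2 and 11 without batch 3. With the top-peak share (counts in the best-covered 1% of peaks) added to the model, 57 gene-end peaks were higher and 92 lower (0.228% and 0.368%), and of all tested peaks 500 were higher and 1266 lower (0.194% and 0.492%), so lower calls outnumbered higher ones in both. With the share in gene-end peaks added instead, 79 gene-end peaks were higher and 36 lower (0.316% and 0.144%), and of all tested peaks 710 and 752 (0.276% and 0.292%). Under both covariates the 28 stayed called.

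The Sgk1 peak (chromosome 10, 21999952 to 22001215, 49 bp past the far end of the gene) had the smallest p of all gene-end peaks. In handled mice it had 4.04 CPM at the lowest, a median of 4.62 and 5.01 at the highest at 0 min, and 6.01, 7.10 and 7.94 at 45 min. In chronically restrained mice the values were 3.4, 4.74 and 6.70 at 0 min and 4.82, 6.76 and 7.76 at 45 min. All 7 handled mice at 45 min exceeded every handled mouse at 0 min, and 4 of 7 chronically restrained mice did so within their history. The averaged log2 change was 0.51 ± 0.068 (SE, adjusted p = 6.7e-06, edgeR), with 0.35, 0.60, 0.46 and 0.73 in batches 1 to 4.

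The Lrrc8a and Phyhd1 peak (chromosome 2, 30262867 to 30267945), whose CpG-poor promoter is printed above, went from 18.7, 20.0 and 23.3 CPM (lowest, median, highest) to 22.8, 26.2 and 30.1 in handled mice. In chronically restrained mice it went from 18.8, 21.1 and 24.4 to 24.7, 26.1 and 26.8. The groups at 45 min lay above those at 0 min for 6 of 7 handled and all 7 chronically restrained mice. The log2 change was 0.30 ± 0.042 (adjusted p = 6.7e-06, edgeR).

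The Adamts14 peak (chromosome 10, 61271900 to 61276416), over the CpG-rich promoter with 6 GC boxes, went from 12, 13.6 and 14.1 to 15.5, 16.4 and 18.3 CPM in handled mice, with no overlap. In chronically restrained mice it went from 12.7, 13.4 and 15.7 to 14.5, 16.9 and 19.4, and 4 of 7 exceeded every mouse at 0 min. The log2 change was 0.29 ± 0.045 (adjusted p = 8.0e-05, edgeR). CpG-poor and CpG-rich starts were thus both among the leading calls.

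Most of the other leading peaks lay at far ends. Near the far end of Myo1a, a brush border myosin, CPM rose from 6.81, 7.78 and 8.74 to 8.15, 9.82 and 11 in handled mice and, after chronic restraint, from 5.85, 6.82 and 9.33 to 7.39, 9.10 and 11.2. Inside the far end of Dclre1b, a nuclease that protects telomeres, it rose from 3.27, 3.90 and 5.23 to 4.82, 5.22 and 6.0 in handled mice and, after chronic restraint, from 2.98, 3.49 and 4.88 to 4.32, 5.12 and 5.6. Inside the far end of Lcn11, a lipocalin, it rose from 1.47, 1.99 and 2.60 to 2.50, 2.72 and 4.08 in handled mice and, after chronic restraint, from 1.55, 1.77 and 2.57 to 2.39, 2.59 and 3.77. At these 3 peaks the groups overlapped in both histories, and the log2 changes were 0.36 ± 0.055, 0.44 ± 0.069 and 0.52 ± 0.084.

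The rest of the 12 named gains, which were ranked by p, had log2 changes of 0.36 beside Galm, an aldose epimerase, 0.31 at the far end of Kpnb1, the nuclear import receptor importin beta, 0.25 at the far end of Farsa, a phenylalanyl-tRNA synthetase subunit, 0.24 over Nfkbia, 0.29 beyond Serpina1f, a serpin, and 0.24 over the start of Htra1. The Nfkbia peak (chromosome 12, 55489982 to 55493962) went from a median of 25.4 to 30.2 CPM in handled mice and, after chronic restraint, from 23.2 to 27.6. It covered the start and reached the 1000 bp window around the far end, so it counted at both. The Htra1 peak (chromosome 7, 130932919 to 130937190) had no overlap between 0 min (14.8 to 17.3 CPM) and 45 min (18 to 20.2 CPM) in chronically restrained mice. In handled mice 1 of 7 at 45 min exceeded every mouse at 0 min.

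The other gains lay near Mt2, Hif3a (2 peaks), Zbtb16, Fam107a, Usp13, Adipor2, Cmtm1, Cdc37l1 (also over Ak3), Cuzd1, Ucp2, Mrps23, Rapgef3 and Zfp410. The rule for gene lists names Mt2 and the wider Hif3a peak, and the rest were chosen after their values were seen. Their log2 changes ran from 0.18 ± 0.039 at Zbtb16 to 0.62 ± 0.13 at Cuzd1. The Cuzd1 peak spanned 250 bp, with 31.4 counts per library on average.

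The Pdcd1 peak (chromosome 1, 94053318 to 94054991, 765 bp before the start) fell from 9.47, 10.5 and 16.2 to 7.55, 8.50 and 11 CPM in handled mice and, after chronic restraint, from 8.60, 10.0 and 13.3 to 7.03, 8.40 and 9.83. In handled mice 6 of 7 at 45 min lay below every mouse at 0 min, and 4 of 7 in chronically restrained mice. The log2 change was −0.28 ± 0.059 (adjusted p = 0.019, edgeR). The highest value was that of animal 45, and without it the change was −0.25 (adjusted p = 0.0026, edgeR). At Inhbc the change was −0.23 ± 0.050 (adjusted p = 0.025, edgeR), with group medians of 11.5 and 9.33 CPM in handled mice and 11.6 and 10.2 CPM in chronically restrained mice.

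**Figure D4:**
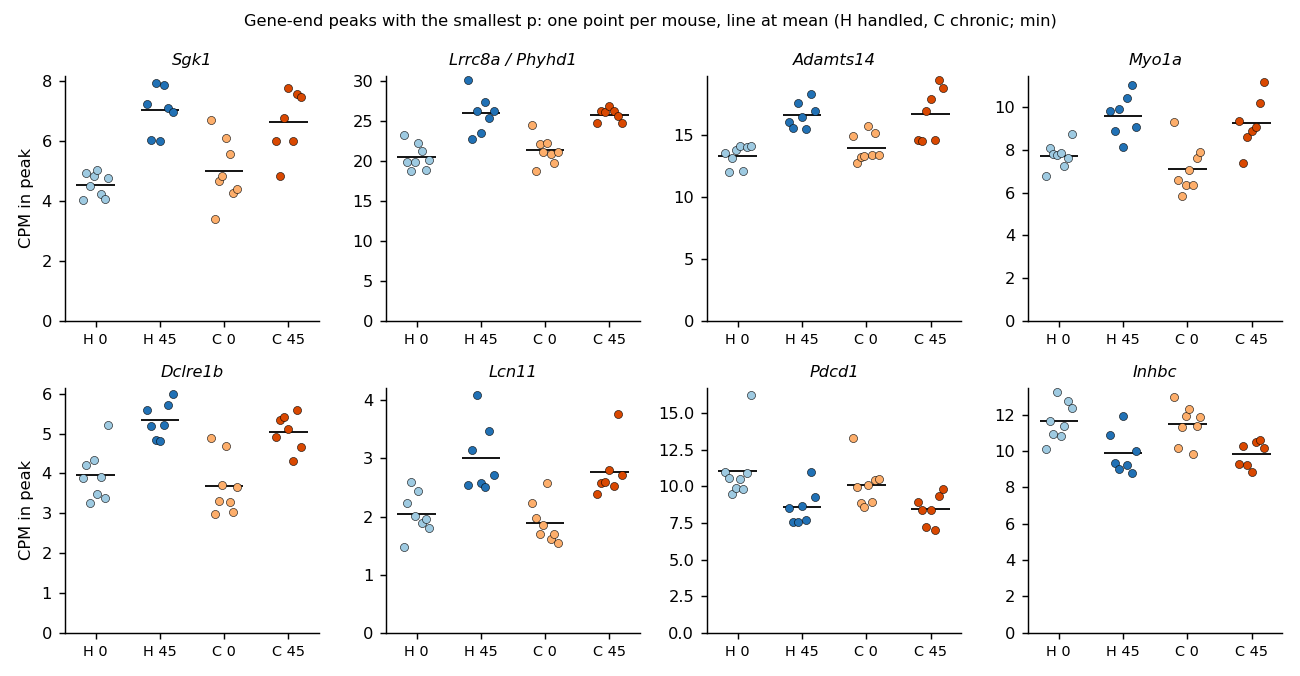
CPM at 8 gene-end peaks, with 1 point per mouse and a line at the group mean, for handled (H) and chronically restrained (C) mice at 0 and 45 min. The Sgk1 and Adamts14 points of handled mice do not overlap between times, and at Pdcd1 and Inhbc the 45 min points are lower, with the animal 45 library at 16.2 CPM for Pdcd1.

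Far ends carried more of these calls than starts. Of the 8006 far-end peaks 14 were higher (0.175%) and 1 lower, and of the 10178 start peaks 6 were higher (0.0590%) and 1 lower. Of the 1361 peaks at both ends 3 were higher (0.220%). Over all tested peaks 0.0731% were higher, but start peaks were mostly wide, with 68.6% of them in the widest quartile. In that quartile 4 of 6986 start peaks, 10 of 3256 far-end peaks and 91 of 48773 other peaks (0.187%) were higher. Start peaks thus had a smaller share of higher calls there than other peaks of that quartile. Without animal 45 the far-end peaks gave 25 higher (0.312%) and 2 lower and the start peaks 12 higher (0.118%) and 1 lower. Of all tested peaks 0.189% were then higher. With the share in gene-end peaks in the model the counts were 30 higher and 12 lower at far ends (0.375% and 0.150%). At starts they were 22 higher and 17 lower (0.216% and 0.167%), and all tested peaks gave 0.276% and 0.292%. With the top-peak share the counts were 25 higher and 18 lower at far ends (0.312% and 0.225%). At starts they were 10 and 50 (0.0983% and 0.491%), and all tested peaks gave 0.194% and 0.492%. The difference between the classes was not tested.

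The bulk of start peaks moved with a single library. Over all start peaks the median log2 change after acute restraint was −0.0076, and it was 0.012 without animal 45. At far ends it was 0.021 and 0.017. Over all tested peaks the median was −0.0025, and 0.00017 without animal 45. By batch the start median was 0.0054, −0.017, 0.044 and −0.071, so its sign turned between batches, and the far-end median was 0.028, 0.038, −0.0070 and 0.039. For chronic restraint the start median was −0.038 with animal 45 and −0.0087 without it, and for females against males 0.040 and 0.012.

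Among the gene lists, calls were concentrated in the glucocorticoid receptor targets. The lists were chosen with earlier results of these data known, so the shares below are descriptions and not an independent test. The list of receptor targets had 39 gene-end peaks at 19 of 29 genes. Of these peaks 7 (17.9%) rose and none fell, where 0.0731% of all tested peaks were called higher. A positive change was seen at 84.6% of the list's peaks and 49% of all tested peaks, and the median log2 change was 0.13 against −0.0025 over all tested peaks. Without animal 45, 11 of the list rose and 92.3% were positive, where 50.1% of all tested peaks were. The list's median was then 0.13, against 0.00017 over all tested peaks. The 7 lay at Sgk1, Fam107a, Hif3a (2 peaks), Mt2, Nfkbia and Zbtb16. In Hif3a, 885 bp inside its start (chromosome 7, 17055669 to 17061542), the mean went from 39.1 ± 5.4 to 48.6 ± 4.7 CPM in handled mice (SD, n = 8 and 7) and, after chronic restraint, from 35.6 ± 6.2 to 46.4 ± 3.8, a log2 change of 0.34 ± 0.064 (adjusted p = 0.016, edgeR). The second Hif3a peak (17062122 to 17063544), over the promoter printed above, changed by 0.31 ± 0.064. Mt2 rose by 0.25 ± 0.049, from medians of 14.2 to 17.2 CPM in handled mice and, after chronic restraint, from 13.5 to 15.6. The changes with the most negative values in the list, −0.096 ± 0.076 at Angptl4, a lipase inhibitor, and −0.028 ± 0.058 at Sesn1, a stress-responsive inhibitor of growth signalling, did not pass.

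Of 30 immediate early genes, which neuronal activity induces within minutes, 6 had only a wider gene-end peak and 1 had none. The wider peaks were set aside. The other 23 genes gave no call at their 47 gene-end peaks. Their median log2 change was −0.022, or −0.0036 without animal 45, and 38.3% of their peaks had a positive change, or 44.7% without that library. At the start of Fos the mean CPM was 24.5 ± 2.5 and 22.9 ± 1.3 in handled mice and 24.2 ± 1.8 and 22.4 ± 1.2 in chronically restrained mice (log2 change −0.097 ± 0.041, adjusted p = 0.57, edgeR). Klf2 (0.076 ± 0.038) and Atf3 (0.041 ± 0.062) lay on the other side of 0.

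Cell type markers and housekeeping lists likewise gave no call with all libraries. Medians were −0.024 at 26 peaks of excitatory neuron markers, 0.044 at 25 of inhibitory neuron markers, 0.0082 at 25 of astrocyte, 0.0094 at 20 of oligodendrocyte, 0.036 at 16 of microglia and −0.013 at 10 of endothelial and mural markers. Without animal 45 the median of the excitatory markers was 0.0026 and that of the endothelial and mural markers −0.018. Among single peaks, the oligodendrocyte gene Ermn had −0.37 ± 0.12 (adjusted p = 0.27, edgeR), in a list where 55% of peaks had a positive change. The endothelial receptor gene Flt1 had 0.25 ± 0.082 (adjusted p = 0.32, edgeR), in a list where 40% of peaks had a positive change. The medians of the 62 complex I, 66 proteasome and 147 ribosomal protein peaks were −0.0092, 0.0032 and −0.0038. Without animal 45 they were 0.0044, 0.020 and 0.0091, and a proteasome peak at Psmc1 passed (0.14 ± 0.032, adjusted p = 0.022, edgeR). At Nr3c1, the glucocorticoid receptor gene itself, the change was −0.24 ± 0.092 (adjusted p = 0.47, edgeR). It was −0.42 ± 0.13 in handled mice and −0.067 ± 0.13 in chronically restrained mice. Nr3c1 had the most negative change named from the stress hormone list. The 25 peaks of that list had a median of 0.017, and 64% had a positive change. With all libraries no list other than the receptor targets held a call, apart from the 1 at Zfp410 in the family named Zfp.

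**Figure D5:**
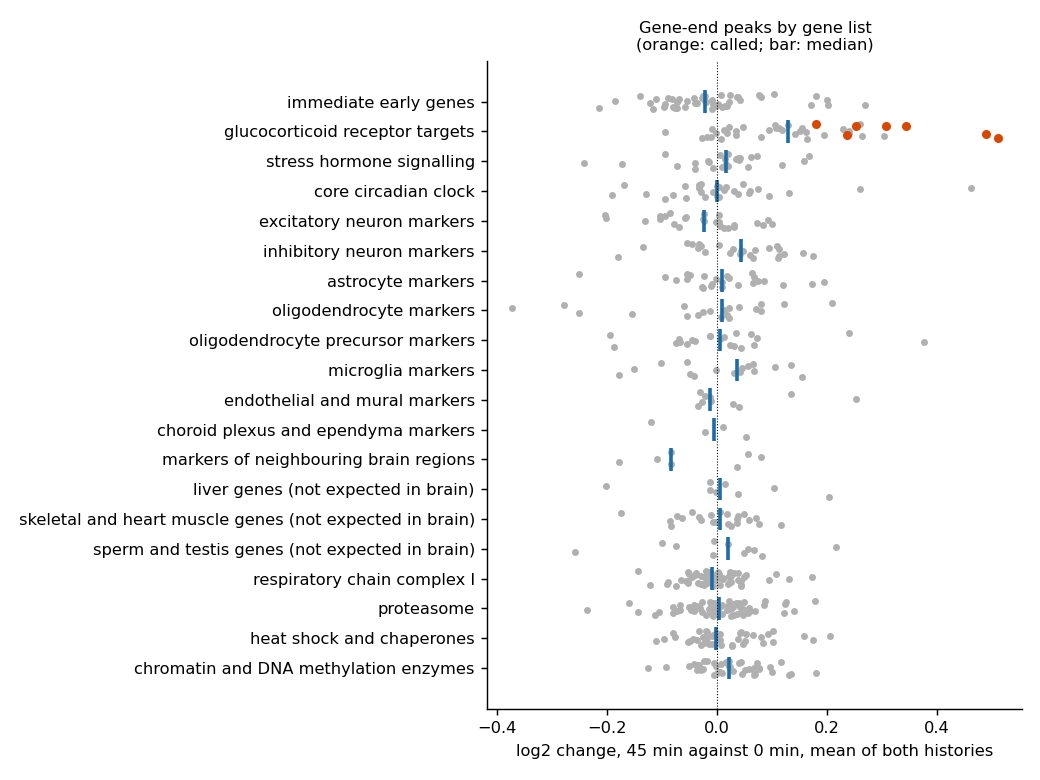
Log2 change at 45 min against 0 min, averaged over both histories, of every gene-end peak of 20 gene lists. Each point is 1 peak, orange points have an adjusted p under 0.05, and bars mark the median of the list. The 7 orange points are all in the row of glucocorticoid receptor targets, whose median is 0.13. The lists were chosen with earlier results of these data known.

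Tested within each history, fewer gene-end peaks passed. In handled mice 3 rose, at Sgk1 (0.62 ± 0.096), Lrrc8a and Phyhd1 (0.34 ± 0.059) and Adamts14 (0.32 ± 0.064), or 0.0120% of gene-end peaks, where 0.00972% of all tested peaks were called higher (edgeR, 7 mice against 8). The count was 14 without animal 45, 0 without batch 2 and 0 without batch 3. In chronically restrained mice none passed by edgeR and 2 by DESeq2, with 852 at an unadjusted p under 0.05 by edgeR, and of all tested peaks 0.00272% were called. The count there was 5 without animal 45, a handled mouse whose library enters the same model, 2 without batch 1, and 3 with total count scaling. The smallest p-values in these mice were at Myo1a (0.39 ± 0.078, adjusted p = 0.076, edgeR), Dclre1b (0.44 ± 0.098) and Lrrc8a and Phyhd1 (0.27 ± 0.059).

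No difference between histories passed at a gene-end peak. The interaction test gave 0 calls by edgeR and by DESeq2, with 556 gene-end peaks at an unadjusted p under 0.05 by edgeR, and 0% of all tested peaks were called. At Sgk1 the change in chronically restrained mice was 0.41 ± 0.095 and the difference from handled mice −0.21 ± 0.14. At Adamts14 the difference was −0.061 ± 0.090 and at Htra1 0.082 ± 0.089. The smallest p-values were at the start of Pelp1, a coregulator of nuclear receptors (−0.40 ± 0.11), near Nme5, a protein of the sperm flagellum (0.67 ± 0.19), and near Kat6a, a histone acetyltransferase (−0.95 ± 0.28, on a peak with a mean of 22.9 counts), each with an adjusted p of 1 (edgeR).

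Chronic restraint by itself gave no call by edgeR. Averaged over both times, 1474 gene-end peaks had an unadjusted p under 0.05, none passed adjustment and DESeq2 called 1. At 0 min 1022 had such a p and at 45 min 843, with 0 calls by either tool, and 0% of all tested peaks were called in each of these comparisons. The smallest p was inside the far end of Faah, which encodes the hydrolase of the endocannabinoid anandamide (chromosome 4, 115997415 to 116001127). The Faah peak had 9.25, 10.1 and 12.4 CPM (lowest, median, highest) in handled mice at 0 min and 10.2, 11.2 and 11.9 at 45 min, against 11.7, 12.5 and 13.7 and 11.6, 12.8 and 13.9 in chronically restrained mice. The ranges of both histories overlapped at each time. The averaged log2 change was 0.23 ± 0.045 with an adjusted p of 0.28 by edgeR, 0.018 by DESeq2 and 0.12 by edgeR without animal 45. The next were between Atp4a and Tmem147 (0.26 ± 0.066) and at Npepl1, an aminopeptidase gene (−0.25 ± 0.065), both with an adjusted p of 0.82. At 0 min alone the smallest p-values were at Tnfaip2 (−0.62 ± 0.15), Ism2 (0.38 ± 0.091) and Faah (0.25 ± 0.062), and at 45 min at Grb7 (−0.55 ± 0.15), Sag (0.24 ± 0.069) and Zbtb8a (0.58 ± 0.17).

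Between the sexes a single gene-end peak passed. It lay at Slc22a29, an organic anion transporter gene, in the gene near its start (chromosome 19, 8251872 to 8252611). Females had 2.43 CPM at the lowest, a median of 3.14 and 4.04 at the highest, and males 1.16, 2.23 and 2.82 (15 mice each), so the sexes overlapped. The log2 difference, females minus males, was 0.47 ± 0.086 (adjusted p = 0.0024, edgeR). This was 0.00400% of gene-end peaks, where 0.0327% of all tested peaks, sex chromosomes included, were called higher in females. Gene-end peaks are autosomal, so the 2 shares are not on like chromosomes. Among autosomal peaks of the third width quartile, 1 of 4422 gene-end and 1 of 58815 other peaks were higher (0.0226% and 0.00170%). In the remaining quartiles no peak of either class was higher. Without batch 2 the difference was 0.31 ± 0.092 and did not pass. No gene-end peak passed for a difference of the acute effect between the sexes by edgeR or DESeq2, with 898 at an unadjusted p under 0.05 by edgeR and 0.000389% of all tested peaks called. The smallest p-values were at Wdr75 (0.61 ± 0.17), Iglon5 (−0.33 ± 0.092) and Cyp8b1 (0.73 ± 0.21).

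Levels of peaks just inside and just outside the limits of the rule were as follows. Gene-end peaks of 9000 to below 10000 bp (n = 202) had 5.12 CPM per kb and those of 10000 to below 11000 bp (n = 168) had 5.31. Peaks 500 to 1000 bp from a gene end (n = 5716) had 2.69 CPM per kb and those beyond that to 2000 bp (n = 12931) had 2.66, while those that covered a gene end (n = 12829) had 5.09. Calls for acute restraint were 11 higher (0.0857%) and 1 lower over gene ends. Nearer than 500 bp without covering an end (n = 6482) they were 5 higher (0.0771%) and 0 lower. From 500 to 1000 bp they were 10 higher (0.175%) and 1 lower, and beyond that to 2000 bp 8 higher (0.0619%) and 4 lower. Over all tested peaks 0.0731% were higher. These shares were not tested against each other.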

How the data were processed

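ATAC-seq libraries of 30 mice (8 and 7 handled and 8 and 7 chronically restrained mice at 0 and 45 min) were analysed from the count table that the authors deposited, which gives whole-number counts per peak for 1 set of peaks. Per the submitters' processing notes, Trimmomatic, Bowtie2, Picard, Genrich 0.6.1 and GRCm38 were used. How peaks of libraries were joined, and whether reads or fragments were counted, is not given in the sources used here. 2 columns that matched no sample were left out. Total counts of 26104576 to 55294838 set the precision, and PCR copies are not independent molecules.

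Gene ends came from a RefSeq table of GRCm38 genes. The strand came from the RefSeq promoter table of GRCm38.p6, which matched 16457 of 20665 autosomal genes. No genome sequence was used, so peak sequences were not read. Counts were scaled by TMM and tested in edgeR 4.0.16 (R 4.3.3, limma 3.58.1) with filterByExpr, estimateDisp, robust glmQLFit and glmQLFTest, on group, sex and batch. The filter left 257143 peaks. The sex difference of the acute effect came from a model with each of the 8 combinations of group and sex, plus batch. Calls had a Benjamini-Hochberg adjusted p under 0.05 over all tested peaks. Log2 changes carry the standard error, and levels are medians over peaks of the mean CPM per kb. Tested on simulated data for the averaged acute effect (20000 peaks, 100 changed at each size), the fit recovered 85 of 100 changes of 0.5 and 100 of 100 changes of 1 on the log2 scale, with 9 false calls. The simulation gave every peak the same spread between animals and held no effect of sex, batch or library composition. Smaller changes were not simulated, so recovery at the median size of the calls, 0.30, was not tested.

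The gene-end peaks and gene lists were chosen with earlier results of these data known. Each of 9 comparisons names up to 12 called peaks per direction, ranked by p and limited to 1 per gene, or the 3 lowest p-values where nothing was called. For each gene list the rule takes the best-covered peak of every gene and names up to 2 with the largest positive and 2 with the largest negative averaged acute change. For levels it names the 10 highest. Settings tried were DESeq2 size factors, total count scaling, no filter, DESeq2 1.42.0, leaving out animal 45 or each batch, single batches, 2 covariates for library composition, windows of 500 and 2000 bp and a limit of 5000 bp.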

Additional observations from a re-analysis of the deposited data

Results flagged for a closer look

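In 44 groups of 7 or 8 libraries the highest or lowest library was compared with the rest of its group (Dixon's test at the 95% level), and 4 stood apart. Chance flags about 1 in 20 such groups. The share of counts in gene-end peaks was 29.9% in animal 45 (handled, 0 min), where the next library of its group had 27.3% and the lowest 25.9%. At the Pdcd1 peak the same library had 16.2 CPM, where the next had 10.9 and the lowest 9.47. At that peak animal 3 (chronically restrained, 0 min) had 13.3 CPM, where the next had 10.5 and the lowest 8.60. At the Lcn11 peak animal 66 (chronically restrained, 45 min) had 3.77 CPM, where the next had 2.80 and the lowest 2.39.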

How the results depend on the processing

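The signs of the 28 gene-end peaks that passed for acute restraint over both histories did not turn under any of the 15 settings with a new fit that gave them a value. The count of 28 stayed within 1.5 times under DESeq2 size factors (28), total count scaling (39), no filter (28), DESeq2 (37), without batch 1 (25), without batch 4 (29), in batch 2 alone (20), with the 2000 bp window (40) and with the 5000 bp limit (25). It rose to 52 when animal 45 was left out, and was 4 without batch 2, 11 without batch 3, 0 in each of batches 1, 3 and 4 alone, 115 with the gene-end share of counts as a covariate, 149 with the top-peak share, and 17 with the 500 bp window. Fewer libraries or fewer peaks entered the batch and window settings, and for the rest the cause was not tested. Of the 28, 12 were called in batch 2 alone, 19 without batch 1, 4 without batch 2, 11 without batch 3 and 23 without batch 4.

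In handled mice the count of 3 became 8 with total count scaling, 14 without animal 45, 0 without batch 2, 0 without batch 3, 6 without batch 4, 0, 1, 0 and 0 in batches 1 to 4 alone, 20 and 25 with the gene-end and top-peak covariates, and 6 with the 2000 bp window. In chronically restrained mice the count of 0 became 3 with total count scaling, 2 with DESeq2, 5 without animal 45, 2 without batch 1, 3 in batch 2 alone, and 17 and 8 with the gene-end and top-peak covariates. For chronic restraint averaged over times it became 1 with DESeq2 and 1 with either covariate. For females against males the count of 1 became 2 with DESeq2, 2 without animal 45, 2 without batch 1, 0 without batch 2, 2 without batch 4, 0, 16, 0 and 0 in batches 1 to 4 alone, 4 with the gene-end covariate and 0 with the 500 bp window. Chronic restraint at single times, the interaction and the difference of the acute effect between sexes stayed at 0 under the settings run. The mean share of counts in gene-end peaks, 26.8% over all libraries, was 25.0% with the 500 bp window, 30.3% with the 2000 bp window and 18.7% with the 5000 bp limit. The ratio of median levels, gene-end over other peaks, is given here as its mean over libraries. With the 500 and 2000 bp windows it moved to 1.03 and 0.993 in the second width quartile (from 1.01). In the third it moved to 1.05 and 1.00 (from 1.03), and in the widest to 1.65 and 1.34 (from 1.54).

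No paired analysis was possible because each animal number occurs once and the groups share no replicate numbers. The narrowest quartile had a median of 28.5 counts per gene-end peak. Strand was unknown for 5482 peaks. Counts near gene ends cannot be assigned to a gene where genes adjoin.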

Other observations

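Gene families beyond those of stress differed in the level of their start peaks. Start peaks of chromatin and DNA methylation enzymes had a median of 8.51 CPM per kb, and those of proteasome, core clock and ribosomal protein genes 6.37, 6.24 and 6.15. Start peaks of excitatory neuron, oligodendrocyte and astrocyte markers had 4.49, 3.89 and 3.28. Those of microglia, inhibitory neuron, and endothelial and mural markers had 2.87, 2.81 and 2.40. The families were not matched on peak width, and start peaks had 2.84 CPM per kb in the narrowest quartile and 6.05 in the widest. Start peaks of liver genes had 3.83 (4 genes) and those of odorant receptors 3.15 (21 genes with a start peak of 938 with a known strand). The 4 vomeronasal receptor genes with a start peak had 6.89, from few genes chosen by having a peak. These are descriptions over peaks that were called, so genes with closed starts do not enter them.

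Peaks that overlapped a start and a far end had a median width of 3314 bp and 4.73 CPM per kb, close to the 4.70 of start peaks. A gene-end peak was shared by the ends of 2 or more genes in 3467 cases, and the genes with one had a median of 2 and at most 7.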
